A study of Rattus norvegicus with 14 samples.

Results

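The genes described here make and fasten the collagen fibre: the prolyl 4-hydroxylase subunits P4ha1, P4ha2 and P4ha3, the lysyl hydroxylases Plod1 and Plod2, the collagen chaperone Serpinh1, the processing enhancer Pcolce and the lysyl oxidases Lox, Loxl1 and Loxl2. They were taken by name, as every probe set on the array whose single gene symbol was one of these 10. All 10 were found, on 14 probe sets, of 14217 genes on the array, and all 10 were among the 11086 genes bright enough to test. Of the 14 probe sets 13 passed the same filter, and the exception, 1 of 2 for Serpinh1, is given by its values below.

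The arrays measured RNA of whole soleus, a calf muscle made up mostly of slow fibres, from male Sprague Dawley rats, with 1 array per muscle. In tenotomy the tendon is cut, so that the muscle is unloaded. The short-term group held 6 right muscles tenotomized for 1 week (rats 12 and 13), 2 weeks (rats 25 and 27), 3 weeks (rat 32) or 4 weeks (rat 42). The long-term group held 4 right muscles tenotomized for 6 weeks (rats 61 and 62), 16 weeks (1 rat) or 22 weeks (1 rat). The 4 controls were left muscles of rats 61 and 62 and of 2 further rats. Rats 61 and 62 thus gave a tenotomized muscle and a control muscle each, and no other treatment or genotype is given for any group. The short-term rats gave no control muscle, and all tenotomized muscles were right and all controls left. In short-term muscle against control, cohort or side and tenotomy can therefore not be told apart. Side and tenotomy can likewise not be told apart in long-term muscle or at 6 weeks against control. Each tenotomized muscle came from a different rat, so between short-term and long-term muscle, and over the weeks, cohort and duration cannot be told apart. The age of the rats is not given in the labels.

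A fibrillar collagen chain is changed many times before it bears load. In the endoplasmic reticulum, prolyl 4-hydroxylase makes the hydroxyproline that holds the triple helix together, lysyl hydroxylases make the hydroxylysine from which the most stable crosslinks form, and Serpinh1 (HSP47) binds the folded helix until it leaves the compartment. Outside the cell the ends of procollagen are cut off, a step that Pcolce speeds up, and lysyl oxidases, which need copper, oxidize lysines so that neighbouring molecules join. In skeletal muscle these proteins come mostly from the fibroblasts of the connective tissue between the fibres and act on collagens of that tissue and of the tendon junction.

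The 14 arrays shared correlations between 0.852 and 0.940 over all probe sets, and no 2 were identical. Their deposited median signals ran from 29.7 to 49.1, so each array was shifted to a common median of the genes tested, and signals below are on that scale, in linear units that compare arrays but not genes. Markers of slow muscle fibres stood for the tissue: their summed signal was 67913 to 106134 on short-term arrays, 82917 to 103019 on long-term arrays and 72110 to 92408 on controls, and 0 of 10 changed in any of the comparisons of groups with control. In short-term muscle they ran from -0.12 for Tnnt1 to 0.32 for Acta1. The ratio of 3′ to 5′ Gapdh signal, which grows as RNA degrades, was 1.16 to 1.61 on short-term arrays, 1.38 to 2.78 on long-term arrays and 1.38 to 2.78 on controls, and its part in the results was not tested. The actin ratio was 1.97 to 3.87, 1.39 to 3.74 and 1.47 to 2.37 on the same groups.

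In short-term tenotomized muscle 9 of the 10 genes were higher than in control, in a fit with limma at a Benjamini-Hochberg adjusted p under 0.05 over all genes tested, where 18% of all genes tested were higher by the same rule. The exception was P4ha2. For the same 9 genes every short-term array lay above every control array, which held for 11.8% of all genes tested. In long-term tenotomized muscle none of the 10 differed from control by that test, as was true of all 11086 genes tested. By the same rule 9 of the 10 were lower than in short-term muscle, against 17.6% of all genes tested. For those 9 all long-term arrays lay below all short-term arrays, as for 11.1% of all genes tested. The median change of the 10 genes was 2.03 on the log2 scale in short-term muscle and -0.04 in long-term muscle, each against control. Changes here are log2 differences between group means, given relative to the median gene of the comparison, which itself moved by -0.11, -0.01 and 0.12 on the log2 scale in short-term against control, long-term against control and long-term against short-term. The adjusted p-values test the change before that subtraction, and they measure the spread between these arrays, whose number limits the precision. In a whole muscle, fewer cells of a type and less RNA per cell cannot be told apart.

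**Figure D1:**
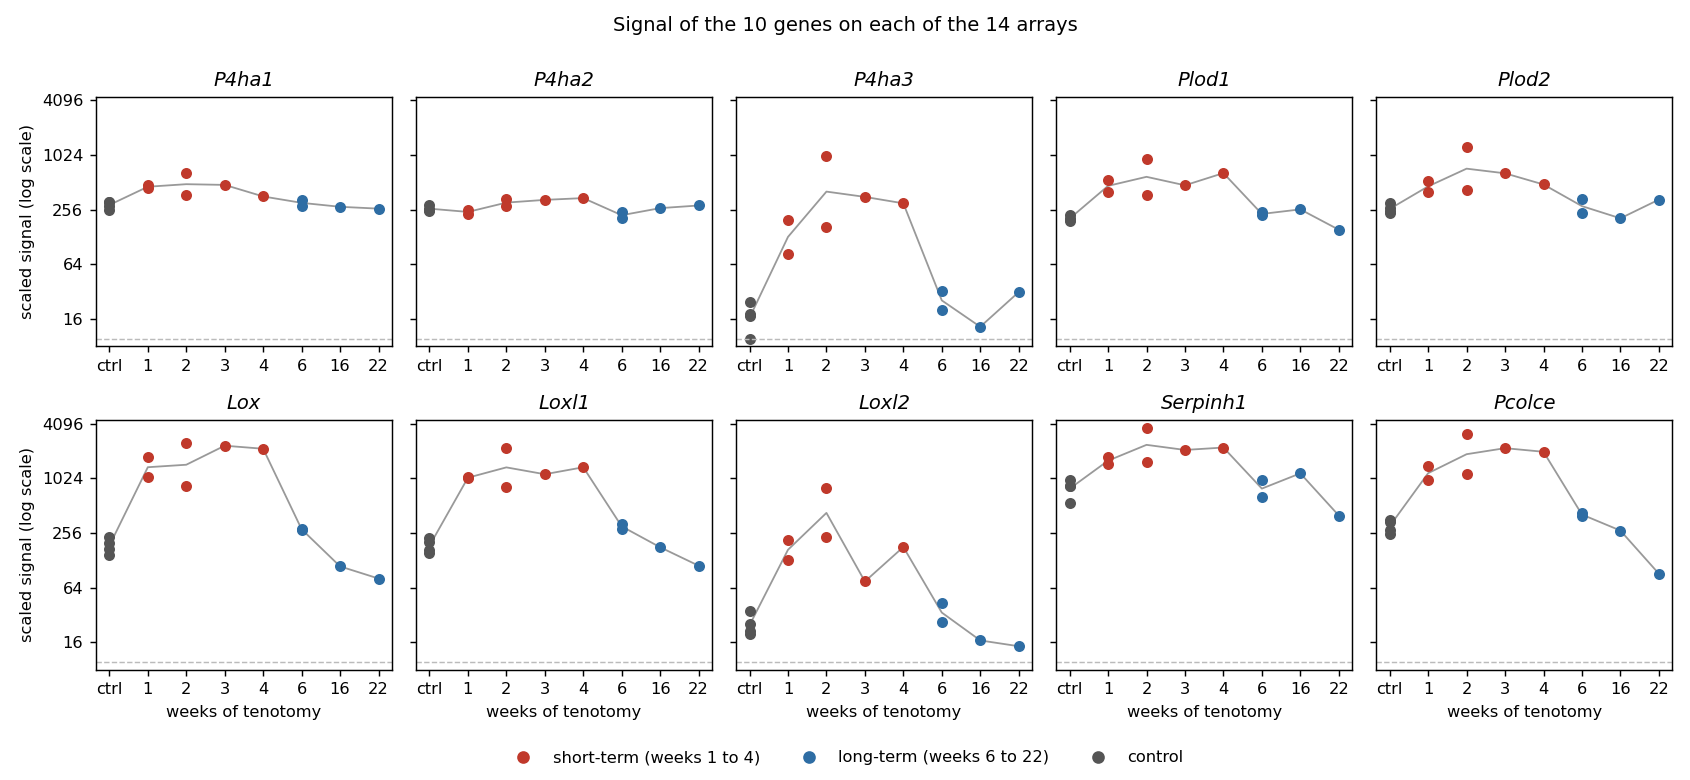
Signal of each of the 10 genes on every array, on a log axis, by weeks of tenotomy with the controls at the low end; each point is 1 array and the weeks are spaced evenly. For 9 of the 10 genes the 6 arrays of weeks 1 to 4 lie above all 4 controls, and the arrays of weeks 6 to 22 lie among or near them.

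**Figure D2:**
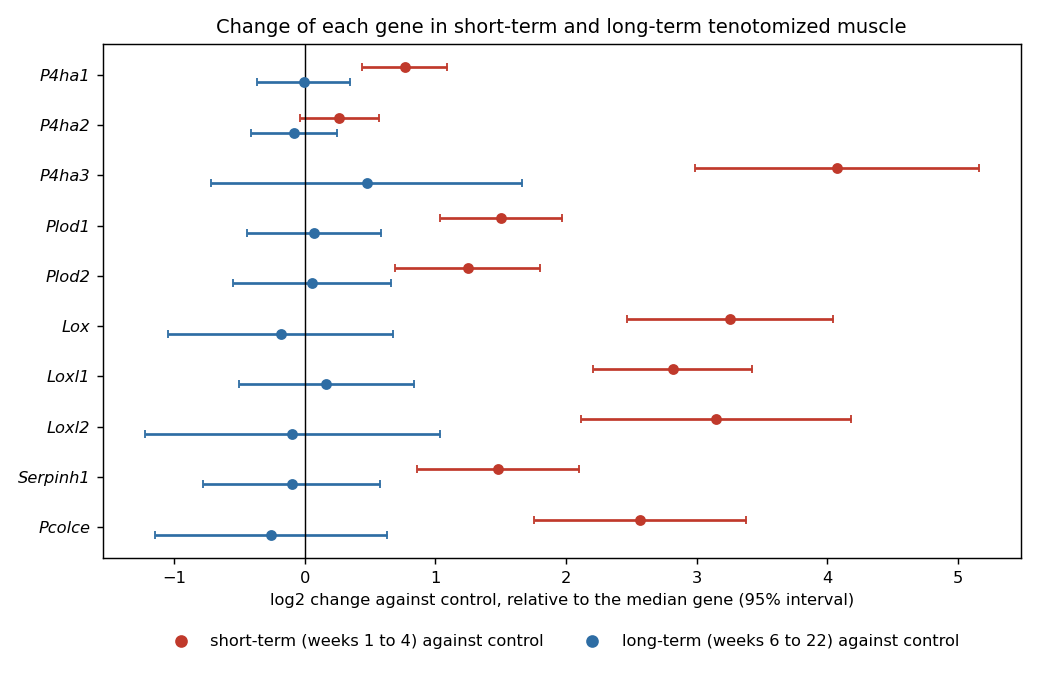
Log2 change of each gene against control, relative to the median gene, in short-term (weeks 1 to 4, 6 arrays) and long-term (weeks 6 to 22, 4 arrays) tenotomized muscle; points are limma estimates and bars 95% intervals. The short-term intervals of 9 genes lie above 0, that of P4ha2 runs from -0.04 to 0.57, and all 10 long-term intervals include 0.

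Among the prolyl 4-hydroxylase subunits the changes in short-term muscle ran from 0.27 for P4ha2 to 4.07 for P4ha3. Prolyl 4-hydroxylase is a tetramer of the common subunit P4hb with 1 kind of catalytic alpha subunit, encoded by P4ha1, P4ha2 or P4ha3. The promoters of the 3 alpha subunit genes are shown because these paralogs encode interchangeable parts of an enzyme and changed by different amounts. They are RefSeq windows of the GRCr8 build, from 250 bases before to 50 after the start of the gene, at chr20:27844796-27845095, chr10:38743644-38743943 and chr1:164040614-164040913, all on the plus strand. Capitals mark ACGTG or its reverse complement CACGT, 1 form of the core of the hypoxia response element. The form GCGTG was neither marked nor counted.
P4ha1: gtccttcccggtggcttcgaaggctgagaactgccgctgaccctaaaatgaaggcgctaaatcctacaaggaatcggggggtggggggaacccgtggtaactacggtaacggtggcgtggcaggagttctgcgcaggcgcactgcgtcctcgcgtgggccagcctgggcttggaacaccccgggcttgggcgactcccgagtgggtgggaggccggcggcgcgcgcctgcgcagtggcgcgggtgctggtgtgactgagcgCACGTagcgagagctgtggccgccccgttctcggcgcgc
P4ha2: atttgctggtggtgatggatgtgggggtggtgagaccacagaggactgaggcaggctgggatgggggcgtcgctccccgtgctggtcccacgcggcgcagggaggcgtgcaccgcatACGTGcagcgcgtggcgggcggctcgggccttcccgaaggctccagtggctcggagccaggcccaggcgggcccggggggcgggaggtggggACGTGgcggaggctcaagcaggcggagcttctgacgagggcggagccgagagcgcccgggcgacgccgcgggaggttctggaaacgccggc
P4ha3: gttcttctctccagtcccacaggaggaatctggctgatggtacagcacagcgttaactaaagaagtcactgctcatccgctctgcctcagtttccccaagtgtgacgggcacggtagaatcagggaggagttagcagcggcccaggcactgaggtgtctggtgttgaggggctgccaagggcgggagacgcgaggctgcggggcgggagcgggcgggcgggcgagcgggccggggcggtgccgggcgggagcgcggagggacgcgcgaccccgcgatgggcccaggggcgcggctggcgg
ACGTG on either strand occurred once in the P4ha1 window, at 2 places in the P4ha2 window and at 0 places in the P4ha3 window, where no match says only that these letters are not in this window.

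P4ha3, the alpha subunit known as the scarcer of the 3 in most tissues, had the largest change of the 10 genes in short-term muscle by the brightest probe set of each. Its signal (probe set 1393129_at) was 199 and 83.2 at 1 week, 166 and 988 at 2 weeks, 354 at 3 weeks and 301 at 4 weeks in short-term muscle. It read 20.03 and 33.0 at 6 weeks, 13.2 at 16 weeks and 31.7 at 22 weeks in long-term muscle and 24.6, 18.0, 17.5 and under the floor of 9.70 in controls. All 6 short-term arrays were above the other 8, and the long-term and control arrays overlapped near the signal of 22.0 above which a gene had to lie on 4 arrays to be tested. Of these 8 only the values of 33.0, 31.7 and 24.6 lay above it. P4ha3 was thus tested only because of its short-term arrays. It rose by 4.07 on the log2 scale (SE 0.51, 95% interval 2.99 to 5.16, adjusted p = 4.8e-05 by limma), rank 8 from the highest of 11086 genes. Since the controls lay so near the floor the size depends on how dim signals are handled, and it was 3.19 when 16 was added to each signal in place of the floor.

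P4ha1, the alpha subunit of the main form of the enzyme in most cells, had signals (1370954_at) of 479 and 439 at 1 week, 370 and 646 at 2 weeks, 480 at 3 weeks and 358 at 4 weeks in short-term muscle. It read 283 and 328 at 6 weeks, 276 at 16 weeks and 263 at 22 weeks in long-term muscle and 313, 282, 254 and 310 in controls. The short-term arrays were all above the controls, the lowest by little, and the long-term arrays overlapped the controls. The rise in short-term muscle was 0.76 (SE 0.15, adjusted p = 0.0032 by limma), and it did not pass on the scale as deposited (0.77, adjusted p = 0.12). P4ha2, the alpha subunit of the form found in cartilage and bone cells among others, had signals (1372610_at) of 229 and 255 at 1 week, 280 and 335 at 2 weeks, 329 at 3 weeks and 344 at 4 weeks in short-term muscle. It read 205 and 242 at 6 weeks, 267 at 16 weeks and 285 at 22 weeks in long-term muscle and 262, 250, 291 and 252 in controls. These overlapped, with 3 short-term arrays above all controls and both 6-week arrays below them, and the difference between short-term muscle and control was 0.27 (95% interval -0.04 to 0.57, adjusted p = 0.41 by limma). Its dimmer probe set, 1375332_at, lay between 26.1 and 60.98 on short-term arrays, 35.4 and 51.1 on long-term arrays and 38.6 and 54.8 on controls, with a difference of -0.06 (95% interval -0.60 to 0.47) for short-term against control.

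The unequal changes were set against each other within each array, where scaling has no part. P4ha3 less P4ha1 was higher in short-term muscle than in control by 3.31 on the log2 scale and P4ha3 less P4ha2 by 3.81. Each had p = 0.0095 in an exact 2-sided permutation test, the smallest that 6 arrays against 4 can give, and 0.067 after adjustment over the 14 such tests. P4ha3 passed the filter only through its short-term arrays, and its controls lay near the floor. Both sizes therefore depend on how dim signals are handled, and these tests are no separate support for its rise. P4ha2 less P4ha1 was lower by 0.50 (p = 0.057, adjusted 0.27, exact permutation test). None of the 14 tests, which also covered the Plod and Lox families and long-term muscle, passed after adjustment. For long-term muscle the smallest p that 4 arrays against 4 can give is 0.029, so those tests could hardly pass. With the mean of all probe sets of a gene in place of the brightest, 4 passed at an adjusted p of 0.033 by the same exact permutation test: both for P4ha3, and Loxl1 and Loxl2 each less Lox. P4ha3 less P4ha1 was 3.31 there too, since neither gene has a second probe set. Its adjusted p was lower only because more of the 14 tests reached the smallest p.

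Plod1 and Plod2 hydroxylate lysines of collagen, Plod1 those within the triple helix and Plod2 those in the telopeptides at its ends. Plod1 (1367807_at) read 544 and 403 at 1 week, 371 and 936 at 2 weeks, 475 at 3 weeks and 648 at 4 weeks in short-term muscle. It read 239 and 221.3 at 6 weeks, 258 at 16 weeks and 154 at 22 weeks in long-term muscle and 202, 194, 223 and 200 in controls. Plod2 (1372897_at) read 531 and 403, then 418 and 1259, then 644 and then 486 at 1, 2, 3 and 4 weeks of short-term tenotomy, 237 and 332 at 6 weeks, 206 at 16 weeks and 331 at 22 weeks in long-term muscle, and 266, 302, 245 and 236 in controls. For both genes the 6 short-term arrays were above the other 8, and long-term and control arrays overlapped. Plod1 rose by 1.503 (SE 0.22, adjusted p = 2.0e-04) and Plod2 by 1.25 (SE 0.26, adjusted p = 0.0027 by limma), and Plod2 less Plod1 differed by -0.26 between short-term muscle and control (p = 0.23, exact 2-sided permutation test, adjusted 0.45).

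Serpinh1, the chaperone that binds only collagens, was bright on every array. Its probe set 1371310_s_at read 1757 and 1463 at 1 week, 1560 and 3677 at 2 weeks, 2104 at 3 weeks and 2237 at 4 weeks in short-term muscle. It read 640 and 976 at 6 weeks, 1164 at 16 weeks and 399 at 22 weeks in long-term muscle and 547, 854, 992 and 835 in controls. All short-term arrays were above the other 8, and the long-term arrays reached both above and below the controls. The rise in short-term muscle was 1.48 (SE 0.29, adjusted p = 0.0017 by limma). The second probe set, 1369009_at, failed the filter with signals of 7.1 to 27.1 over the 14 arrays, and with the mean of both the rise was 0.75 and did not pass (adjusted p = 0.055).

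Pcolce binds procollagen and raises the rate at which Bmp1 and its relatives cut off the carboxyl propeptide. It (1386912_at) read 1387 and 984 at 1 week, 1147 and 3115 at 2 weeks, 2202 at 3 weeks and 2009 at 4 weeks in short-term muscle. It read 392.2 and 427 at 6 weeks, 273 at 16 weeks and 91.4 at 22 weeks in long-term muscle and 358, 343, 280 and 252 in controls. The short-term arrays were all above the rest, the 6-week arrays just above the controls, and the 22-week array was the lowest of all 14. Pcolce rose by 2.57 in short-term muscle (SE 0.38, adjusted p = 1.7e-04 by limma).

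The brightest probe sets of the 3 lysyl oxidases rose by 2.82 to 3.26 in short-term muscle. Lox, the oxidase of fibrillar collagens and elastin, read (1368171_at) 1746 and 1057 at 1 week, 838 and 2498 at 2 weeks, 2344 at 3 weeks and 2169 at 4 weeks in short-term muscle. It read 280 and 284 at 6 weeks, 110 at 16 weeks and 80.9 at 22 weeks in long-term muscle and 173, 234, 148 and 199 in controls. Every short-term array was above the other 8, both 6-week arrays were above the controls, and the 16-week and 22-week arrays were below them. Lox rose by 3.26 in short-term muscle (SE 0.37, 95% interval 2.47 to 4.05, adjusted p = 2.6e-05 by limma), rank 33 of 11086.

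Loxl1, which is known for its part in elastic fibres, read (1388902_at) 1028 and 1055 at 1 week, 824 and 2223 at 2 weeks, 1137 at 3 weeks and 1358 at 4 weeks in short-term muscle. It read 282 and 326 at 6 weeks, 179 at 16 weeks and 112 at 22 weeks in long-term muscle and 154, 226, 165 and 205 in controls. It followed the order seen for Lox, with short-term arrays above the rest and 6-week arrays above the controls, while only its 22-week array was below them. Loxl1 rose by 2.82 in short-term muscle (SE 0.29, adjusted p = 1.4e-05 by limma). Loxl2, which also acts on type IV collagen of basement membranes, read (1391450_at) 131 and 214 at 1 week, 229 and 796 at 2 weeks, 75.01 at 3 weeks and 180 at 4 weeks in short-term muscle. It read 26.9 and 43.3 at 6 weeks, 16.8 at 16 weeks and 14.5 at 22 weeks in long-term muscle and 35.6, 25.2, 19.6 and 21.3 in controls. Its short-term arrays were above the rest and its controls lay near the filter level. The rise was 3.15 (SE 0.49, adjusted p = 2.1e-04 by limma), or 2.54 with 16 added to each signal, and the second probe set 1380474_at, at 49.6 to 144 on short-term arrays, 18.0 to 44.9 on long-term arrays and 12.6 to 27.1 on controls, rose by 2.20 (SE 0.32, adjusted p = 2.1e-04 by limma over all probe sets).

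The probe sets of Lox did not keep 1 ratio over time. The second, 1368172_a_at, read 898 and 726 at 1 week, 948 and 2409 at 2 weeks, 211 at 3 weeks and 286 at 4 weeks in short-term muscle. It read 36.4 and 49.6 at 6 weeks, 13.9 at 16 weeks and under the floor at 22 weeks in long-term muscle and 16.9, 20.7, 22.8 and 11.2 in controls. The ratio of the first to the second was 1.94 and 1.46 at 1 week and 0.884 and 1.04 at 2 weeks, against 11.1 at 3 weeks, 7.59 at 4 weeks, 5.72 to 8.34 at 6 to 22 weeks (the last with the second probe set at the floor) and 6.49 to 17.8 in controls. The 4 arrays of weeks 1 and 2 thus lay below the other 10, with no test since the split was seen in the values. The controls of the second probe set, at 11.2 to 22.8, lay near the floor of 9.70 and the filter level of 22.0. The ratios in controls and the sizes of change therefore depend on how dim signals are handled. Outside short-term muscle only its values of 36.4, 49.6 and 22.8 lay above the filter level. It was thus tested only because of its short-term arrays. By the second probe set Lox rose by 5.36 in short-term muscle (SE 0.59, adjusted p = 2.7e-05 by limma over all probe sets), by 5.58 at 1 week and by 6.50 at 2 weeks. The files do not say which part of the Lox transcript each probe set reads.

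**Figure D3:**
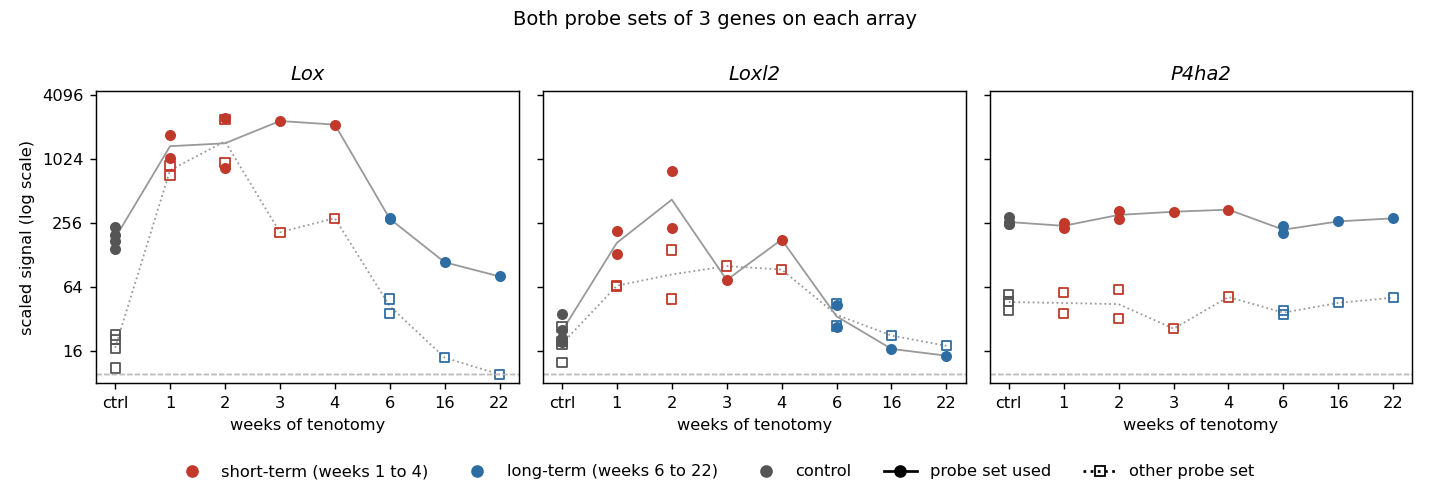
Signals on a log axis of both probe sets of Lox, Loxl2 and P4ha2 on every array, by weeks of tenotomy with the controls at the low end; each point is 1 array, lines join the means of each week and the dashed line is the floor of 9.70. The second Lox probe set comes close to the first at 1 and 2 weeks only, where the ratios are 0.884 to 1.94.

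Most of the genes were higher than control at 1 and 2 weeks, and none passed at 6 weeks. With 2 arrays each, 8 of the 10 genes were higher than control at 1 week, against 9.52% of all genes tested, and 9 at 2 weeks, against 16.3%. The genes that did not pass at 1 week were P4ha2 and Plod2, the second with a difference of 0.90 (95% interval 0.14 to 1.67, adjusted p = 0.11 by limma). Changes at 1 week ran up to 3.03 for P4ha3, 2.94 for Lox and 2.83 for Loxl2, and at 2 weeks up to 4.70 for P4ha3, 4.19 for Loxl2 and 3.04 for Lox. Without the 1-week array of rat 12 the count at 1 week was 3 genes, with the lone array taken to vary like the others. Without the 2-week array of rat 27 the count at 2 weeks was 6, and the calls of P4ha1, Plod2 and Serpinh1 did not pass (adjusted p = 0.20, 0.081 and 0.059 by limma).

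The array of rat 27 was the highest of all 14 for 9 of the 10 genes, and rat 42, at 4 weeks, was the highest for P4ha2. Against rat 25, the other 2-week muscle, rat 27 read 5.95 times as high for P4ha3, 3.48 times for Loxl2, 3.01 times for Plod2 and 2.98 times for Lox, down to 1.20 times for P4ha2. Its summed fibroblast markers were 20080, against 14792 for rat 25, its tendon markers 18027 against 8547 and its actin 3′ to 5′ ratio 3.87 against 1.97, and their part in the difference was not tested. Leaving out rat 27, or any other single array, changed no member's call in short-term against control or long-term against short-term.

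At 6 weeks none of the 10 genes passed against control by limma, as was true of all 11086 genes, while 470 genes and 1 of the 10, Loxl1, had an unadjusted p under 0.05. The change of Loxl1 at 6 weeks was 0.71 (95% interval 0.02 to 1.41) and that of Lox 0.60 (95% interval -0.20 to 1.41). The second Lox probe set, with both 6-week arrays above its dim controls, differed by 1.29 (95% interval 0.44 to 2.14, unadjusted p = 0.0063, adjusted p = 1 by limma over all probe sets). Both 6-week arrays lay above all 4 controls for Lox, Loxl1 and Pcolce, as for 8.2% of all genes tested, and below them for P4ha2, as for 9.25%. Within rat 61 the tenotomized leg was higher than the control leg by 0.88 for Loxl1, 0.69 for Lox and 0.13 for Pcolce on the log2 scale, and within rat 62 by 0.52, 0.28 and 0.32. Plod1 was higher in the tenotomized leg by 0.24 in rat 61 and 0.19 in rat 62, and Serpinh1 by 0.23 and 0.19. P4ha2 was lower by 0.35 in rat 61 and 0.05 in rat 62, while P4ha1, P4ha3, Plod2 and Loxl2 differed in direction between the rats.

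For long-term muscle as a whole, with 0 of 11086 genes called by limma and 247 genes and none of the 10 at an unadjusted p under 0.05, the intervals bound what the 4 arrays against 4 leave possible. They were narrow for P4ha1, at -0.36 to 0.35, and P4ha2, at -0.41 to 0.25, and wide for P4ha3, at -0.71 to 1.67, Loxl2, at -1.22 to 1.04, and Pcolce, at -1.15 to 0.63. The group held muscles that differed from each other: the 22-week array was the lowest of the 10 tenotomized arrays for 7 of the genes. Its signals for Pcolce, Lox, Loxl1, Loxl2, Plod1 and Serpinh1 lay below all controls, while those of Plod2 and P4ha3 lay above all controls. The same array had summed fibroblast markers of 4957, against 9382 to 11074 in controls. Its Gapdh 3′ to 5′ ratio was 2.78, against 1.38 to 2.78 in controls. Its actin 3′ to 5′ ratio was 3.74, against 1.47 to 2.37 in controls. The part of these values was not tested.

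Over the 10 tenotomized arrays 6 of the 10 genes fell with log2 of the week by limma, against 7.21% of all genes tested. Lox fell by 1.05 on the log2 scale for each doubling of the weeks (SE 0.20, adjusted p = 0.012), Loxl2 by 1.04, Pcolce by 0.86, Loxl1 by 0.82, Plod1 by 0.40 and P4ha1 by 0.25. P4ha3 had a slope of -0.92 that did not pass (adjusted p = 0.057 by limma). Without the 22-week array none of the 10 passed, while over all genes tested 140 passed in either direction, against 1740 with all arrays. The slopes without that array were -0.95 for Lox, -1.02 for Loxl2, -0.73 for Loxl1 and -0.64 for Pcolce. Without the 16-week array 2 passed, Lox and Loxl1, while Loxl2 and Pcolce had slopes of -1.005 and -0.89. P4ha1 and Plod1 also lost their calls on leaving out either 6-week array or the 1-week array of rat 12, and Plod1 on leaving out the 2-week array of rat 25 or the 3-week array.

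The enzymes were set beside their substrates with the mean of Col1a1, Col1a2 and Col3a1, the chains of collagens I and III, on the same array. In short-term muscle these 3 collagens changed together by 2.29 on the log2 scale before the median gene was taken off. P4ha2 changed less than the collagens by 2.14, P4ha1 by 1.64 and Plod2 by 1.16, each at p = 0.0095 and an adjusted p of 0.063 over 20 tests (exact 2-sided permutation test). Plod1 changed less by 0.90 (p = 0.019) and Serpinh1 by 0.93 (p = 0.038), while P4ha3 changed more by 1.67 (p = 0.029) and Lox by 0.86 (p = 0.038), with adjusted values of 0.095 to 0.11 in the same exact permutation test. For P4ha3 the size again rests on controls near the floor, in a gene that passed the filter only through its short-term arrays. Loxl1 changed more by 0.41 and Loxl2 by 0.74, each at p = 0.12 and an adjusted p of 0.28 (exact permutation test). Pcolce differed from the collagens by 0.16 (p = 0.50, exact permutation test). None of the 20 tests passed after adjustment. Against Col1a1 alone 5 passed (P4ha1, P4ha2, Plod1, Plod2 and Serpinh1 lower) and against Col3a1 alone 5 (P4ha1 and P4ha2 lower, P4ha3, Lox and Loxl1 higher), each at an adjusted p of 0.038 by the same exact permutation test.

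Among the other genes of the pathway, counted by list with members included, 11 of 15 tested genes of collagen proline and lysine hydroxylation were higher in short-term muscle than in control and 0 lower, with a median change of 1.24, where 18% of all genes tested were higher and 26.5% lower. The counts of the lists that follow stand beside these same shares. P4hb, the subunit common to all prolyl 4-hydroxylases, rose by 0.81 (adjusted p = 0.0030 by limma), and Crtap, a partner of the prolyl 3-hydroxylase P3h1, had the lowest value of the list at -0.24 (adjusted p = 0.36). Fkbp10, a chaperone that partners Plod2 in telopeptide hydroxylation, rose by 3.09. Of the chaperones and export factors of collagen 7 of 11 were higher and 0 lower (median 1.48), with Fkbp14 at 1.02, Fkbp7 at 1.92, Fkbp9 at 1.48 and the transcription factor Creb3l1 at 2.38, while Preb, part of the export machinery, had -0.12 (adjusted p = 0.14). Bmp1, the protease that Pcolce assists, rose by 1.31 (adjusted p = 0.0019 by limma).

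Of the crosslinking and copper supply genes 7 of 13 were higher and 0 lower, with a median of 0.94. Loxl3, a further lysyl oxidase, rose by 1.58 (adjusted p = 0.0039 by limma), and Atp7a, the copper pump that loads lysyl oxidases, had the smallest value at 0.25 (adjusted p = 0.53). Of the fibrillar collagens 8 of 9 were higher (median 2.37), with Col11a1 at 3.25, Col1a1 at 3.08, Col5a1 at 2.58, Col1a2 at 2.37 and Col3a1 at 1.76, and Col11a2 at 0.55 did not pass (adjusted p = 0.49). In long-term muscle none of the genes in these 5 lists differed from control by limma, as was true of all 11086 genes tested.

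**Figure D4:**
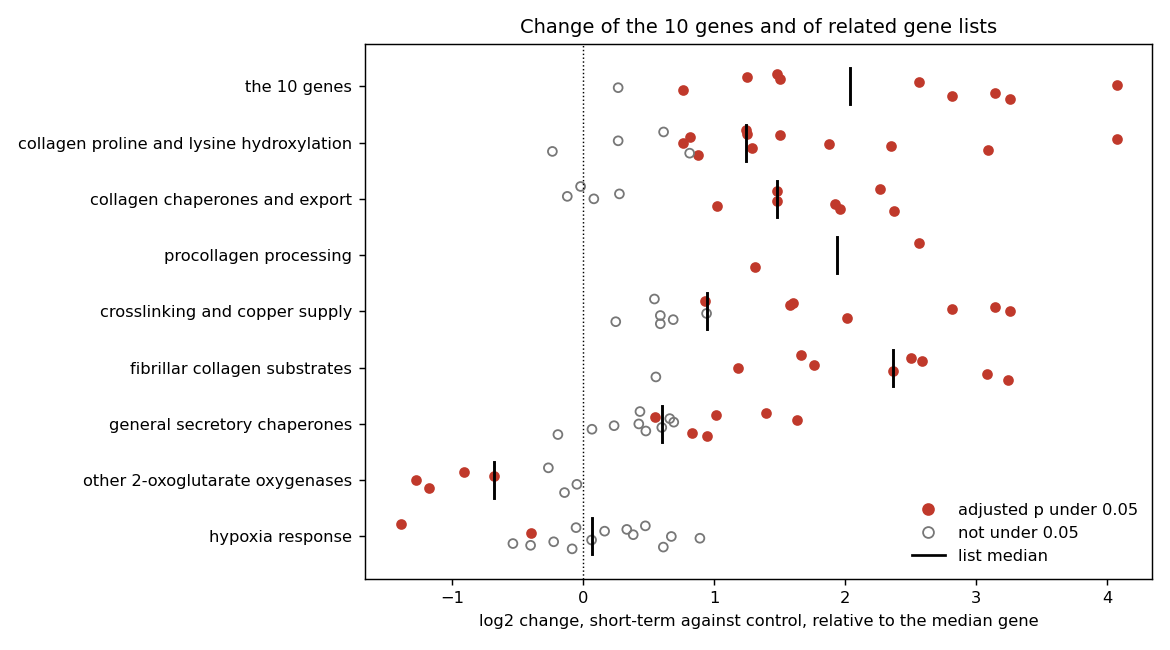
Log2 change of every tested gene of each list in short-term tenotomized muscle against control, relative to the median gene; each point is a gene, and the median of all genes tested is 0. The members and the fibrillar collagens lie mostly above 0, with medians of 2.03 and 2.37.

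P4ha1, P4ha2, Plod2, Lox and Loxl2 are known in cultured cells as targets of the hypoxia-inducible factor, so genes of the hypoxia response were counted beside them. In short-term muscle 0 of 15 were higher than control and 2 were lower, against 18% and 26.5% of all genes tested, with a median of 0.06: Vegfa, which makes vessels grow, fell by 1.40 (adjusted p = 6.3e-06 by limma), and Hmox1, the highest of the list, had 0.89 (adjusted p = 0.066). ACGTG occurred in the windows of 3 of the 8 members in the promoter table (P4ha1, P4ha2 and Plod2), against 19.3% of all 33469 promoters. CAGAC or GTCTG, the SMAD box, occurred in 4 of the 8 (P4ha3, Plod1, Plod2 and Loxl1), against 50.1%. The promoters of Lox and Loxl2 were not analysed here.

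Some markers of connective tissue cells moved with these genes. Of the fibroblast markers 8 of 10 tested were higher in short-term muscle, against 18% of all genes tested, and the sum of 11 was 14570 to 20990 on short-term arrays, 4957 to 13403 on long-term arrays and 9382 to 11074 on controls. Thy1, a surface protein of fibroblasts, rose by 3.53 (adjusted p = 3.5e-04 by limma), and Gsn had -0.05 (adjusted p = 0.54). Of the macrophage markers 10 of 12 were higher, the sum of 12 being 5103 to 9052 on short-term arrays, 1382 to 3349 on long-term arrays and 1599 to 3274 on controls, and Cd68 rose by 2.28 while Cd14 had 0.94 (adjusted p = 0.10). Of the tendon markers 4 of 7 were higher, the sum of 7 being 6288 to 18027, 3595 to 6916 and 4075 to 6311 on the same groups, with Tnmd at 2.35 (adjusted p = 0.020 by limma). Scx, the defining transcription factor of tendon cells, had 0.00 (adjusted p = 0.81 by limma), with mean signals of 541 in short-term muscle and 585 in controls, and Egr1, a further member named after its value was seen, had 0.01 (adjusted p = 0.86). The part of these cells in the changes of the 10 genes was not tested.

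Markers of other cells were counted in the same way. For smooth muscle and pericytes 2 of 11 were higher, against 18% of all genes tested, with Tagln at 1.29 and Mcam at -0.35 (adjusted p = 0.12 by limma). Of the genes of endothelium 0 of 9 were higher and 1 was lower, Kdr, which fell by 0.63 (adjusted p = 3.3e-04 by limma), while Cldn5 had 0.61 (adjusted p = 0.080). For bone and cartilage cells 2 of 4 tested were higher, with Acan at 2.80 (adjusted p = 0.0055) and Col10a1 at -0.59 (adjusted p = 0.17), while Bglap, the defining marker of osteoblasts, was at the floor on all 14 arrays. For adipocytes 1 of 5 was higher, against the same 18%: Cfd by 2.22 (adjusted p = 0.013), with Fabp4 at -0.31 (adjusted p = 0.15). Lep was at the floor on all 14 arrays.

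Over the 14 arrays, whose short-term members stand apart from the rest, the log2 values of 9 of the genes followed the mean of the other members with a Pearson r of 0.90 to 0.98, and P4ha2 with an r of 0.51. The 8 genes outside the set most like the mean profile were Cotl1 (r of 0.989), Cnpy4, Cthrc1, Rcn3, Kdelr3, Fkbp10, Bgn and Clmp (r of 0.984), a description over arrays that share the scaling. In short-term muscle against control Cthrc1, a secreted protein of matrix-forming cells, rose by 5.87 and Bgn, the proteoglycan biglycan, by 2.92. Kdelr3, a receptor that returns proteins to the endoplasmic reticulum, rose by 2.52 and Rcn3, a calcium-binding protein of that compartment, by 2.27. Fkbp10 rose by 3.09, Cotl1 by 2.68, Clmp by 2.01 and Cnpy4 by 1.87.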

How the data were processed

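Whole soleus muscles were measured on Affymetrix rat arrays. The authors deposited 1 linear intensity per probe set and array, computed with MAS5 per the submitters' processing notes. The scaling target and detection calls are not given in the sources used here. Arrays have no read depth, and their number limits the precision.

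Signals were taken to log2 and each array was shifted to a common median of the genes tested. Values under the pooled 25th percentile (9.70) were raised to it, and the brightest probe set stood for a gene. Genes above the pooled 40th percentile (22.0) on at least 4 arrays were tested. Of 31099 probe sets, 20826 carried 1 gene symbol, 436 several and 9780 none, and 57 were controls. Symbols were updated to GRCr8.

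The group comparisons used limma 3.58.1 (R 4.3.3), in 1 fit of 14 arrays with an intensity trend and Benjamini-Hochberg adjustment over all genes tested. A slope on log2 week used the 10 tenotomized arrays, and a fit by time point tested weeks 1, 2 and 6. For weeks 3, 4, 16 and 22, with a single array each, values are given with no test. Differences between genes were tested with exact permutation over arrays. Rats 61 and 62 gave both legs, which the p-values ignore. The deviations of their 2 legs from the group means correlated at 0.42 and 0.22.

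The genes and lists were chosen with earlier results of these data known. All 10 genes were named whatever their values. From each other list the text names the genes with the highest and the lowest value, for the collagen lists also the first 4 measured, and outside the lists the 8 genes most like the mean profile. The alternatives tried were 5 other scalings, other floors and filters, the mean of all probe sets, other fits, rat as a block, and each array left out in turn. The fits were tested on simulated data.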

Additional observations from a re-analysis of the deposited data

Results flagged for a closer look

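For 9 of the 10 genes the changes in long-term and short-term muscle against the same controls differed by a test of the difference itself. The test was long-term less short-term in limma with Benjamini-Hochberg adjustment over all genes tested. All 9 were lower in long-term muscle, as were 17.6% of all genes tested by the same rule. By the brightest probe set of each gene P4ha3, whose long-term arrays lay near the floor, differed by -3.61 on the log2 scale (adjusted p = 1.4e-04), Lox by -3.45 (adjusted p = 2.7e-05), Loxl2 by -3.25 (adjusted p = 2.0e-04) and Pcolce by -2.83 (adjusted p = 1.1e-04). Loxl1 differed by -2.66 (adjusted p = 3.0e-05). Serpinh1 differed by -1.59 (adjusted p = 0.0010), Plod1 by -1.44 (adjusted p = 3.2e-04), Plod2 by -1.20 (adjusted p = 0.0037) and P4ha1 by -0.78 (adjusted p = 0.0029). For each of the 9, all 4 long-term arrays lay below all 6 short-term arrays, as for 11.1% of all genes tested. P4ha2, with -0.36 (95% interval -0.66 to -0.06, adjusted p = 0.19), did not pass.

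In none of the 30 groups of arrays tested, the 10 genes in 3 groups each, did a single array stand apart from the rest of its group by Dixon's criterion, which chance passes in about 1 group of 20.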

How the results depend on the processing

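The counts of 9 genes higher in short-term muscle than in control, 0 in long-term muscle and 9 lower in long-term than in short-term muscle stayed within 1.5 times under the other settings, and at 9, 0 and 9 on leaving out each array. P4ha1 lost its call on the deposited scale in short-term against control and long-term against short-term (adjusted p = 0.12 and 0.081), and on the common median of all probe sets in the second (adjusted p = 0.054). Serpinh1 lost its short-term call with the mean of all probe sets (adjusted p = 0.055). P4ha2 passed in long-term against short-term with the 2% trimmed mean (adjusted p = 0.035). The count at 1 week was 5 in place of 8 on the deposited scale and 5 with no filter, and 3 to 9 on leaving out an array. The count of falling slopes was 3 in place of 6 with no filter and 0 to 8 on leaving out an array. At 2 weeks it was 6 to 9 and at 6 weeks 0 to 0. Over all genes, the slope called 3911 on the common median of all probe sets, 1044 with quantile normalization and 692 with no filter, against 1740. At 6 weeks 2 genes were called with no filter, against 0. On leaving out an array, all genes called ran from 4058 to 5293 for short-term against control, 0 to 0 for long-term against control, 3780 to 5225 for long-term against short-term, 140 to 2555 for the slope, 631 to 3307 for week 1, 1674 to 4651 for week 2 and 0 to 26 for week 6. Tests between family members stood at 4 past the threshold with the mean of all probe sets, and those against collagens at 5 with Col1a1 alone and 5 with Col3a1 alone, against 0, and at 0 to 0 on leaving out an array. Leaving out an array of a group compared raises the smallest p that these exact tests can give. The counts of 0 there therefore say little. The adjusted p of the exact tests also depends on how many of them reach the smallest p. The cause of the shifts was otherwise not tested. With rat as a replicate block (pairing rats 61 and 62, within-rat correlation 0.49 in the fit by group and 0.33 in the fit by time point) the counts of members stood at 9, 0 and 9 for the group comparisons and 8, 9 and 0 for the tested weeks in order, and no member's call changed. Of 2514 single values, 2359 kept both their direction and their call or lack of one. A further 68 lost and 24 gained a call in the same direction, and 63 changed direction. No value past the threshold turned in direction, while 63 values short of it changed sign, among them Lox in long-term muscle against control at 0.03 with rat as a block, against -0.18. The median gene moved by -0.34 to 0.06 in short-term against control over the scalings. Signals near the floor, as for P4ha3, Loxl2 and the second Lox probe set in controls, limit the size of their changes.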

Other observations

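Other enzymes that use the same cofactors as the collagen hydroxylases were not called higher with them. Of 7 other 2-oxoglutarate oxygenases, 0 were higher and 4 were lower in short-term muscle than in control, against 18% and 26.5% of all genes tested, with a median of -0.68 on the log2 scale. Egln3, an oxygen sensor of muscle, fell by 1.28 (adjusted p = 0.0019 by limma), and Egln2 had the highest value at -0.05 (adjusted p = 0.32).

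General chaperones of the secretory pathway were higher in 6 of 15 cases and lower in 0, with a median of 0.60, against 18% of all genes tested that were higher. Pdia3, a disulfide isomerase of glycoproteins, rose by 1.63 (adjusted p = 1.1e-05 by limma), and Canx, its lectin partner, had -0.19 (adjusted p = 0.052).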
